A study of Mus musculus with 6 samples.

Results

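The subject is 10 mouse genes that make, release or break down pyrophosphate, or that carry phosphate across the cell membrane: Alpl, Phospho1, Enpp1, Nt5e, Ank, Abcc6, Slc20a1, Slc20a2, Slc34a2 and Xpr1. They were chosen by name, as every probe that the array's annotation assigns to them; the rule uses no measured value, though the gene list was drawn up with earlier results of these data known. The 10 genes have 16 probes of 55681 on the array, and all 10 symbols are also in a RefSeq gene table of assembly GRCm38.p6. RNA came from whole testes of 3-month-old males, taken 10 days after a single scrotal heating at 43°C for 20 min, and each was hybridised to a one-colour Agilent array. The control strain B6 is wild-type C57BL/6 (3 arrays). The other, B6.MRLc1-(D1Mit202–D1Mit403), is a congenic strain on the C57BL/6 background whose distal chromosome 1, from 67.97 to 81.63 cM, is of MRL type (3 arrays, called B6.MRLc1). All 6 testes were heated, and the values compare strains and not heated with unheated tissue; unheated arrays were not analysed here. The study's title concerns the onset of calcification inside the heated testis, and the comparison here asks whether these 10 genes differed between the strains at that time.

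Whether mineral forms outside cells depends on the balance of phosphate, a building block of hydroxyapatite, and pyrophosphate, which binds the crystal surface and stops its growth. ENPP1 cuts extracellular ATP into AMP and pyrophosphate, and ANK and ABCC6 let cells release the ATP it uses. NT5E turns the AMP into adenosine, and ALPL, the tissue-nonspecific alkaline phosphatase, splits pyrophosphate into phosphate. SLC20A1, SLC20A2 and SLC34A2 take phosphate up with sodium, XPR1 exports it, and PHOSPHO1 frees phosphate inside the matrix vesicles in which bone mineral begins.

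Because 5 of the genes have more than 1 probe and the probes often differed, the first 30 of each probe's 60 bases are shown for probes of the genes in which that matters, as given in the array files (5′ to 3′; nothing is capitalised because no base is singled out). Positions are those of the array annotation on mm9. Whether a probe lies in an exon, an intron or an untranslated region was not analysed here.
Enpp1 A_51_P408584: cagtgtgaagtgtttgactgtattccttcc
Slc20a1 A_55_P2115577: tctcctagaaggtggctggcctgcatccat
Slc20a1 A_55_P2115582: ggacagccttccatgttcatctgtctacct
Slc20a2 A_52_P229044: tggtgcggttacttacagtagatgtgtatt
Slc20a2 A_55_P2075631: cccgaaaccatggaaatgctgctaatattt
Xpr1 A_52_P678117: ttgaggttttccggcgatttgtgtggaact

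The Enpp1 probe shown lies at chr10:24358048-24358107. The Slc20a1 probes lie at chr2:129029990-129030049 and chr2:129037286-129037345, and the Slc20a2 probes at chr8:23679094-23679153 and chr8:23679961-23680020. The 60 bases of the Xpr1 probe shown are spread over 6820 bases of chromosome 1 (chr1:157130518-157137337), so they are not contiguous in the genome.

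No member differed between the strains by the test used. Of the 16 probes, 13 probes of 8 genes were bright enough to be tested, and 0 of the 13 passed in limma at an adjusted p under 0.05, against 665 of 36626 probes over the whole array, or 1.82%. An unadjusted p under 0.05 was reached by 1 of the 13, the 3′ probe of Slc20a1, against 18.8% of all probes tested. The estimates of the 13 ran from -0.48 to 0.24 on the log2 scale (B6.MRLc1 minus B6), 8 of them above 0 and 5 below. Their median was 0.06 and the median of their sizes 0.13, where all tested probes had 0.02 and 0.13. Only 10 of the 13 were well above background on all 6 arrays. Phospho1 (-0.48) and the Slc20a1 probe at 129029990 (-0.41) were bright enough to be tested through their B6 arrays alone. The dimmer Enpp1 probe (-0.28) was well above background on 1 B6.MRLc1 array. With the normexp background correction described below, these estimates were 0.04, 0.09 and 0.09. In 2 of the 13, or 15.4%, the values of the strains did not overlap, as in 27% of all probes tested with values on all 6 arrays. The 95% interval lay inside a 2-fold change either way for 11 of the 13, all but the brighter Enpp1 probe and the Slc20a1 probe at 129029990. The 11 include Phospho1 and the dimmer Enpp1 probe. Their B6.MRLc1 values lay near background, so for these the interval sets no bound on the change. These intervals are per probe and were not widened for the number of probes. The 3 probes left out were those of Slc34a2 and Abcc6.

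**Figure D1:**
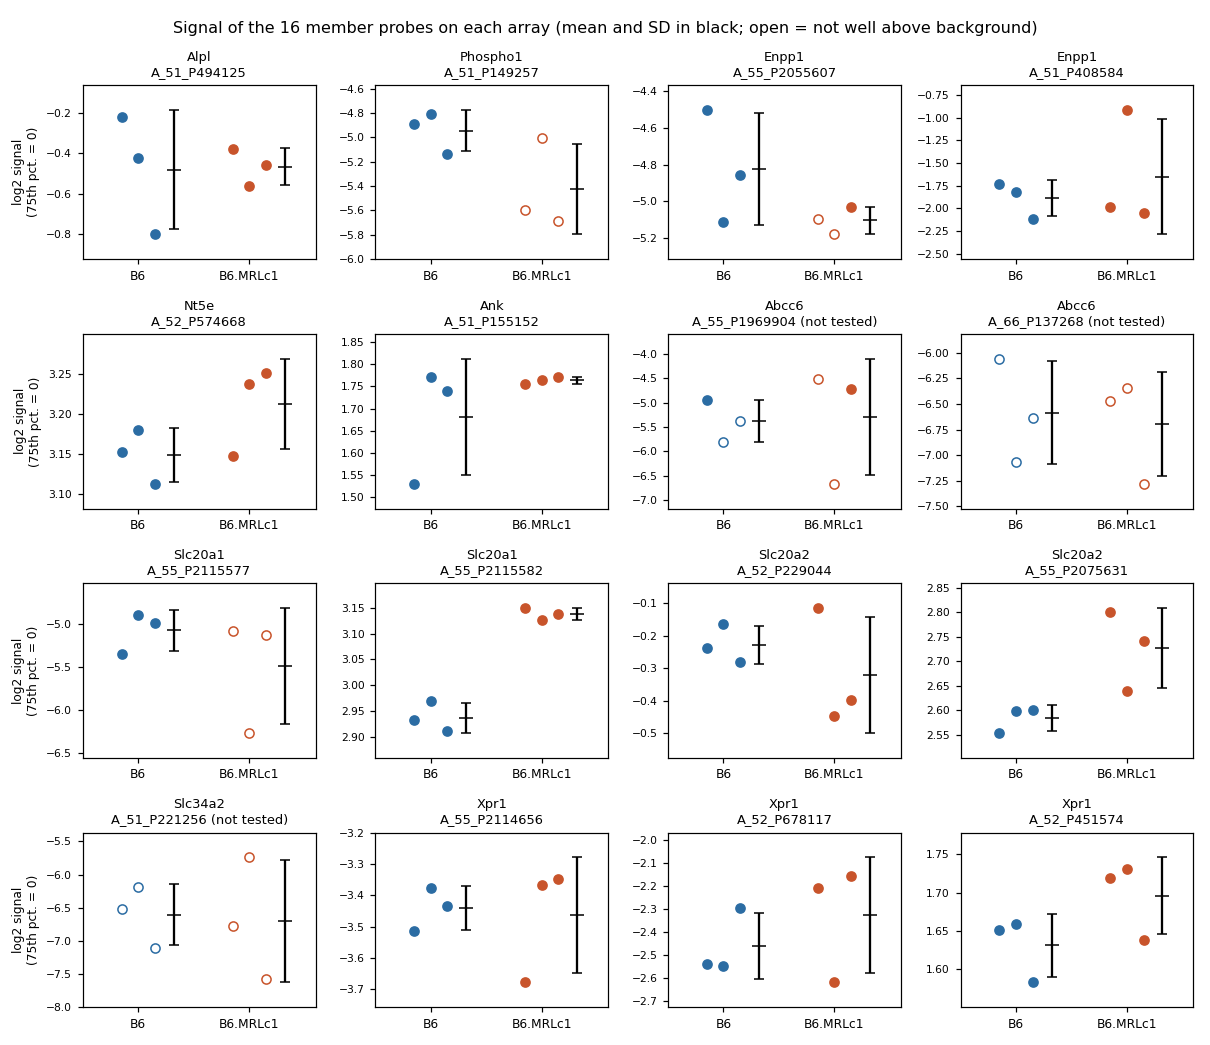
Log2 signal of each of the 16 probes on each array, relative to the array's 75th percentile, with B6 in blue, B6.MRLc1 in orange, and the mean and SD of 3 arrays in black. Open points were not well above background. Each panel has its own scale, and the strains overlap in every tested panel except Slc20a1 A_55_P2115582 and Slc20a2 A_55_P2075631.

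**Figure D2:**
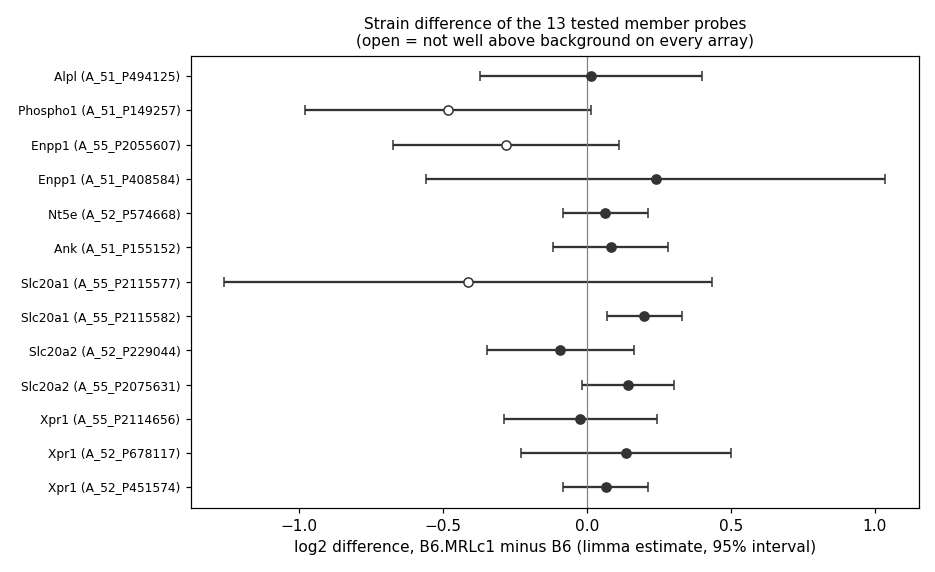
Log2 difference between the strains (B6.MRLc1 minus B6) of the 13 tested probes, as the limma estimate with its 95% interval. Open points mark probes that were not well above background on every array, and only the interval of Slc20a1 A_55_P2115582 lies wholly on 1 side of 0.

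The array files hold, for each spot, a flag that its signal is well above background. On the whole the arrays carried testis RNA: all 12 probes of 10 genes that define testicular cells, among them Sox9, Star and Prm1, were well above background on all 6 arrays. The 75th percentile of signal ran from 558.0 to 666.4 intensity units, and 58.0% to 69.0% of spots were well above background, fewer on each B6.MRLc1 array than on any B6 array. Across probes, the correlation of arrays of the same strain was 0.990 to 0.995, and that of arrays of different strains 0.979 to 0.990. The 3 B6 arrays lay in 1 row of the slide and the 3 B6.MRLc1 arrays in the other, so the strain and the row on the slide cannot be told apart. Spermatid markers differed between the groups: 5 of 12 tested round spermatid probes were lower in B6.MRLc1 and 0 higher, with a median of -0.94. The 15 elongating spermatid probes had a median of -2.12 with 0 called, and their summed level was 4.41 to 5.76 in B6 and 2.55 to 3.51 in B6.MRLc1 (log2). What part this has in any value below was not tested, and fewer cells of a type and less RNA per cell cannot be told apart in whole tissue.

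Alpl, whose enzyme removes pyrophosphate, showed no difference between the strains larger than the spread between arrays. Its single probe (chr4:137297658-137297716) read -0.22, -0.42 and -0.80 on B6 arrays 1 to 3 and -0.38, -0.56 and -0.45 on B6.MRLc1 arrays 1 to 3. The B6 arrays hold both the highest and the lowest of the 6 values, and all B6.MRLc1 arrays lie between them. The means were -0.48 ± 0.29 and -0.47 ± 0.09 (SD, n = 3 each), and the difference was 0.01 (SE 0.16, 95% interval -0.37 to 0.40; limma adjusted p = 0.968). On the fold scale the interval runs from 0.773 to 1.32. Its estimate was -0.15 without B6 array 3 and 0.14 without B6 array 1.

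Phospho1, whose enzyme frees phosphate inside matrix vesicles, was close to background. Its probe (chr11:95692092-95692151) read -4.89, -4.81 and -5.14 on the B6 arrays, each well above background, and -5.59, -5.00 and -5.69 on the B6.MRLc1 arrays, none of which was. The -5.14 of B6 was so flagged and the -5.00 of B6.MRLc1 was not, so the flags do not rank the strains. The strains overlapped, and the estimate of -0.48 (SE 0.20, 95% interval -0.98 to 0.01; limma adjusted p = 0.278) was the lowest of the 13. No fold bound can be given, because the B6 mean does not exceed the mean, over the B6.MRLc1 arrays, of each array's lowest signal well above background. With background corrected by normexp, a method that draws dim values together, it was 0.04.

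Enpp1, the source of pyrophosphate, gave opposite estimates on its 2 probes, neither past the test. The brighter probe (A_51_P408584) read -1.73, -1.82 and -2.11 in B6 and -1.99, -0.91 and -2.05 in B6.MRLc1. B6.MRLc1 array 2 stood above the other 5, which overlapped. The estimate was 0.24 (SE 0.32, 95% interval -0.56 to 1.04; limma adjusted p = 0.725), and -0.13 without that array (adjusted p = 0.655). The same array had the highest adipocyte score, 1.02, against -1.12 to 0.52 on the others, and 6 of the 7 adipocyte probes were tested. The 0.52 was that of B6.MRLc1 array 3, where the Enpp1 probe read -2.05. Array 2 of B6.MRLc1 also had the highest epididymis score (0.54, from 2 tested probes of 8) and the lowest red cell score (-1.59, from 3 of 4). A score is the median over a list's tested probes of the log2 signal minus each probe's mean. The summed level of the adipocyte probes was 1.84 to 2.57 in B6 and 2.70 to 3.74 in B6.MRLc1, and its part in the Enpp1 value was not tested. Of the 6 tested adipocyte probes 0 passed in limma, with estimates from 0.02 (Plin1) to 1.36 (Cidec).

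The dimmer Enpp1 probe was near background, at -4.50, -5.11 and -4.85 in B6 and -5.10, -5.18 and -5.03 in B6.MRLc1, where 1 of 3 arrays was well above background. Its estimate was -0.28 (SE 0.16; limma adjusted p = 0.402), and 0.09 with normexp. Over the 6 arrays the Enpp1 probes correlated at -0.27, given as a description. The gap between the probes was -0.52 (SE 0.45) in B6.MRLc1 relative to B6 (exact permutation test, two-sided, p = 0.3, where 0.1 is the smallest that 3 against 3 allows).

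Ank and Abcc6 serve the release of ATP. Ank was bright and nearly constant: its probe (chr15:27523965-27524024) read 1.53, 1.77 and 1.74 in B6 and 1.76, 1.77 and 1.77 in B6.MRLc1. All but B6 array 1, the lowest, fell between 1.74 and 1.77. The estimate was 0.08 (SE 0.08, 95% interval -0.12 to 0.28; limma adjusted p = 0.615), an interval of 0.923-fold to 1.22-fold. Without B6 array 1 it was 0.01.

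Abcc6 was not measurable. The probe at chr7:53231864-53231923 was well above background on 1 B6 and 1 B6.MRLc1 array, with values from -6.66 to -4.50, and the probe 48 bases away (chr7:53231756-53231815) on 0 of 6, with values from -7.28 to -6.06. The lowest and the highest values of the first probe were both B6.MRLc1 arrays. Whether Abcc6 is transcribed at a level below this limit cannot be told from these arrays.

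Nt5e, which makes adenosine from the AMP that ENPP1 leaves, was bright and differed little between arrays. Its probe (chr9:88266616-88266675) read 3.15, 3.18 and 3.11 in B6 and 3.15, 3.24 and 3.25 in B6.MRLc1. The means were 3.15 ± 0.03 and 3.21 ± 0.06 (SD, n = 3 each) and overlapped. The estimate was 0.06 (SE 0.06; limma adjusted p = 0.602), with an interval of 0.943-fold to 1.16-fold.

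The phosphate importer genes Slc20a1 and Slc20a2 held the only tested member probes whose strains did not overlap. The 3′ probe of Slc20a1 (A_55_P2115582) read 2.93, 2.97 and 2.91 in B6 and 3.15, 3.13 and 3.14 in B6.MRLc1. Every B6.MRLc1 array was above every B6 array, with means of 2.94 ± 0.03 and 3.14 ± 0.01 (SD, n = 3 each). The estimate was 0.20 (SE 0.05, 95% interval 0.07 to 0.33), or 1.15-fold, and it did not pass (limma adjusted p = 0.135). It was positive in all 17 alternative analyses, from 0.17 to 0.22, and passed in 1, the fit with an intensity trend in the variance (adjusted p = 0.046). In the other 16 the adjusted p was up to 0.308.

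The other Slc20a1 probe (A_55_P2115577), which the array assigns to another transcript of the gene, was near background. It read -5.35, -4.89 and -4.99 in B6, all well above background, and -5.08, -6.26 and -5.13 in B6.MRLc1, none of them so. The -5.35 of B6 was so flagged while the -5.08 and -5.13 of B6.MRLc1 were not, so the flags do not rank the strains. The strains overlapped, and B6.MRLc1 array 2 was the lowest of the 6. The estimate was -0.41 (SE 0.34; limma adjusted p = 0.556), and 0.09 with normexp. The gap between the Slc20a1 probes was -0.61 (SE 0.40) in B6.MRLc1 relative to B6 (exact permutation p = 0.3, two-sided).

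For Slc20a2 the 3′ probe (A_55_P2075631) read 2.55, 2.60 and 2.60 in B6 and 2.80, 2.64 and 2.74 in B6.MRLc1. The strains did not overlap, though B6.MRLc1 array 2 came close to B6 arrays 2 and 3. The estimate was 0.14 (SE 0.07, 95% interval -0.02 to 0.30; limma adjusted p = 0.312). The probe 807 bases upstream (A_52_P229044) read -0.24, -0.17 and -0.28 in B6 and -0.12, -0.45 and -0.40 in B6.MRLc1. It overlapped and pointed the other way, at -0.09 (SE 0.10; limma adjusted p = 0.667). The gap between the probes was -2.81 ± 0.06 in B6 and -3.05 ± 0.12 in B6.MRLc1 (SD, n = 3 each; exact permutation p = 0.1, two-sided, the smallest the design allows). So no direction is given for Slc20a2 as a gene.

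Slc34a2, the sodium-phosphate importer of lung and gut epithelium, was not detected well above background. Its probe (chr5:53462121-53462180) read -6.53, -6.19 and -7.10 in B6 and -6.77, -5.74 and -7.59 in B6.MRLc1, with 0 of 6 arrays well above background. Both ends of that range are B6.MRLc1 arrays. On 2 of these, arrays 1 and 3, the scanner software had put a surrogate value in place of a signal too close to background, as it did for the second Abcc6 probe on B6.MRLc1 array 3.

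Xpr1, the phosphate exporter, is the only member on chromosome 1, the chromosome that carries the MRL segment. Its 3 probes lie between 157122924 and 157179313, and the labels bound the segment in cM only, so whether Xpr1 is inside it was not tested. The brightest probe (A_52_P451574) read 1.65, 1.66 and 1.58 in B6 and 1.72, 1.73 and 1.64 in B6.MRLc1. Its strains overlapped, and the estimate was 0.06 (SE 0.06; limma adjusted p = 0.594), with an interval of 0.944-fold to 1.16-fold. The probe spread over 6820 bases (A_52_P678117) ran from -2.55 to -2.30 in B6 and from -2.62 to -2.16 in B6.MRLc1, with an estimate of 0.13 (SE 0.15; limma adjusted p = 0.658). The third (A_55_P2114656, chr1:157179254-157179313) ran from -3.51 to -3.37 and from -3.68 to -3.35. Its estimate was -0.02 (SE 0.11; limma adjusted p = 0.927), and 0.19 with normexp (adjusted p = 0.112). The gaps among the 3 probes gave exact permutation p-values of 0.6 to 0.9, two-sided.

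Over all 7 pairs of probes of the same gene, Abcc6 included, the differences between strain means had opposite signs in 6, and the correlation over the 6 arrays ran from -0.38 to 0.09. With normexp only the Slc20a2 probes still had opposite signs (-0.07 and 0.11). The Abcc6 probes were not tested, and the dimmer probes of Enpp1 and Slc20a1 were near background. The Xpr1 pairs share probes and are not separate results. Each correlation rests on 6 arrays that share slide and scaling and is a description only. The exact permutation p-values of the 7 gaps were 0.1 to 1, before any adjustment.

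**Figure D3:**
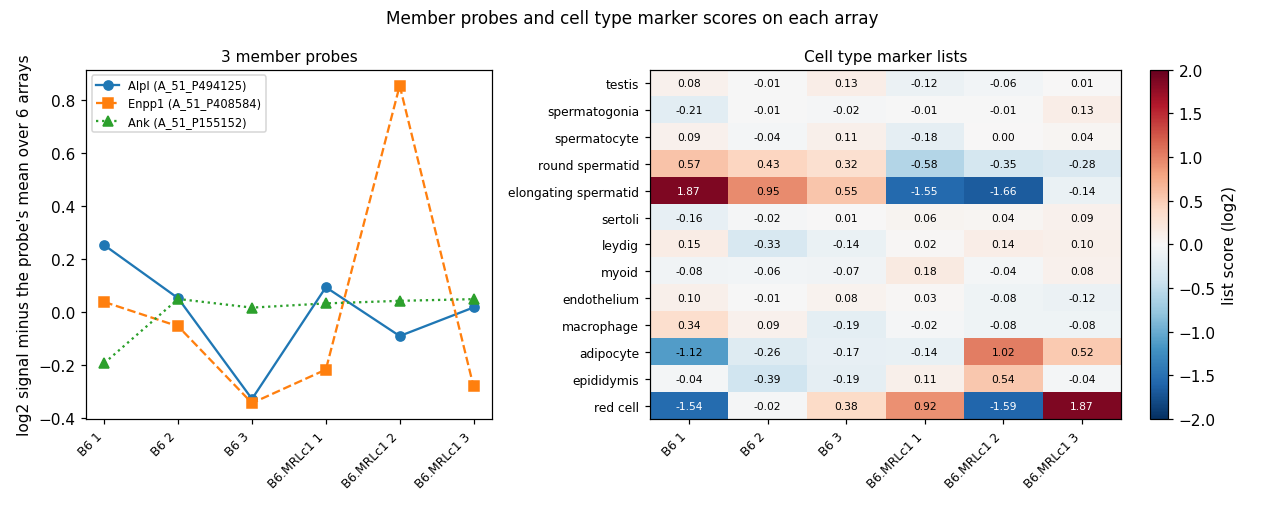
Left, log2 signal of Alpl, Enpp1 and Ank on each array minus the probe's mean over the 6 arrays. Right, the score of each cell type marker list on each array (median log2 deviation over its tested probes, colour and number). The Enpp1 probe is highest on B6.MRLc1 array 2, where the adipocyte score is 1.02, and the elongating spermatid scores are positive on all B6 arrays and negative on all B6.MRLc1 arrays.

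For Alpl, Enpp1 and Ank, the genes with the most similar profile over the 6 arrays were looked up among 23634 named genes, with 1 probe per gene. For Alpl these were Lrch1 (r = 0.992, rho 0.943) and Fam108b (0.990, 0.829). For the brighter Enpp1 probe they were Hao1 (0.990, 0.943) and Fut10 (0.989, 0.886), and for Ank they were Zfp324 (0.994, 0.771) and Cd163l1 (0.987, 0.714). In a search this wide over 6 arrays, values of this size describe these arrays only.

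Around the 10 genes, 72 others of the same pathways were listed by role, and 80 of their 102 probes were tested, covering 58 genes. They include 12 tested probes for extracellular nucleotide enzymes and 8 for other phosphate carriers, each with 1 call. In limma 2 of the 80 probes passed, both lower in B6.MRLc1, which is 2.5% beside the 1.82% of all probes tested. Of these, the Slc34a3 probe was bright enough to be tested through its B6 arrays alone. The median of the 80 was 0.02, as over all probes, and 21 of the 80 had an unadjusted limma p under 0.05, beside 18.8% of all probes tested. Values did not overlap between strains for 32 of the 80 (40%, beside 27% of all probes).

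Enpp6, a choline-specific relative of ENPP1 that makes no pyrophosphate, measured -0.78 on the log2 scale (SE 0.08; limma adjusted p = 0.024), from -4.15 ± 0.11 to -4.93 ± 0.08 (SD, n = 3 each). It was well above background on 2 of 3 B6.MRLc1 arrays, and with normexp the value was -0.10. The other Enpp6 probe read -0.41 (limma adjusted p = 0.303) with strains that overlapped, and 0.03 with normexp. That probe was bright enough to be tested through its B6 arrays alone. Slc34a3, a sodium-phosphate importer of the kidney, was well above background on all B6 arrays and on none of the B6.MRLc1 arrays, with means of -4.68 ± 0.19 and -6.07 ± 0.39 (SD, n = 3 each; limma adjusted p = 0.046). The B6 mean was 1.19-fold the mean, over the B6.MRLc1 arrays, of each array's lowest signal well above background (-4.49, -5.01 and -5.31), but below that of array 1 alone. The 1.19-fold does not take in the spread between arrays. With normexp neither probe passed (limma adjusted p = 0.332 for Enpp6 and 0.116 for Slc34a3), and Slc34a3 measured -0.22. Each of these calls was lost in every fit that left out 1 array, B6 or B6.MRLc1, with no neighbouring probe called in any of the 6.

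In the adenosine group, 0 of 11 tested probes passed and the median was -0.23, or -0.01 with normexp. Slc28a2, a nucleoside importer, measured -0.78 (SE 0.16; limma adjusted p = 0.082), or -0.44 with normexp. The probe A_51_P382789 of Adora3, an adenosine receptor, did not pass (limma adjusted p = 0.085) and was bright enough to be tested through its B6 arrays alone. It lay too close to background on all 3 B6.MRLc1 arrays to have a level there. Its B6 mean was 2.71-fold the mean, over the B6.MRLc1 arrays, of each array's lowest signal well above background. The 2.71-fold does not take in the spread between arrays. The other Adora3 probe, well above background on 1 B6.MRLc1 array, measured -0.56, and both were smaller with normexp (-0.65 and -0.06). Among 10 tested probes for ATP release, the channel genes Panx1 and Gja1 measured -0.36 (SE 0.11) and 0.27 (SE 0.09), with limma adjusted p = 0.171 and 0.194.

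Of the phosphate hormone axis 0 of 15 tested probes passed. Pdzk1, a scaffold for phosphate transporters, measured -1.42 (SE 0.32; limma adjusted p = 0.102) on its lead probe, which 1 B6.MRLc1 array did not show well above background. With normexp this was -0.69, while its other tested probe measured 0.20. Cyp27b1, which activates vitamin D, measured 0.65 (SE 0.21; limma adjusted p = 0.187), or 0.37 with normexp, with 2 of its 3 B6.MRLc1 values well above background. None of the 8 tested probes for inositol pyrophosphate enzymes, whose products bind XPR1, passed either, with Ip6k1 at 0.22 (SE 0.06) and Ppip5k1 at -0.32 (SE 0.11) on 1 probe, -0.11 with normexp, and -0.13 on the other. The pyrophosphatases inside cells also had 0 of 7, with Ppa1 at -0.17 (SE 0.07). Lhpp was at -0.10 (SE 0.07) on 1 probe and 0.02 on the other.

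The matrix vesicle group had 0 of 9, led by 2 probes of choline kinase Chka at 0.31 and 0.29 (SE 0.07 each; limma adjusted p = 0.117 and 0.126). Choline kinase makes phosphocholine, a substrate of PHOSPHO1. The intestinal and germ cell alkaline phosphatases Alpi, Akp3 and Alppl2 had no tested probe. The first pair were well above background on 0 of 6 arrays, and Alppl2 on 1 array of each strain.

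**Figure D4:**
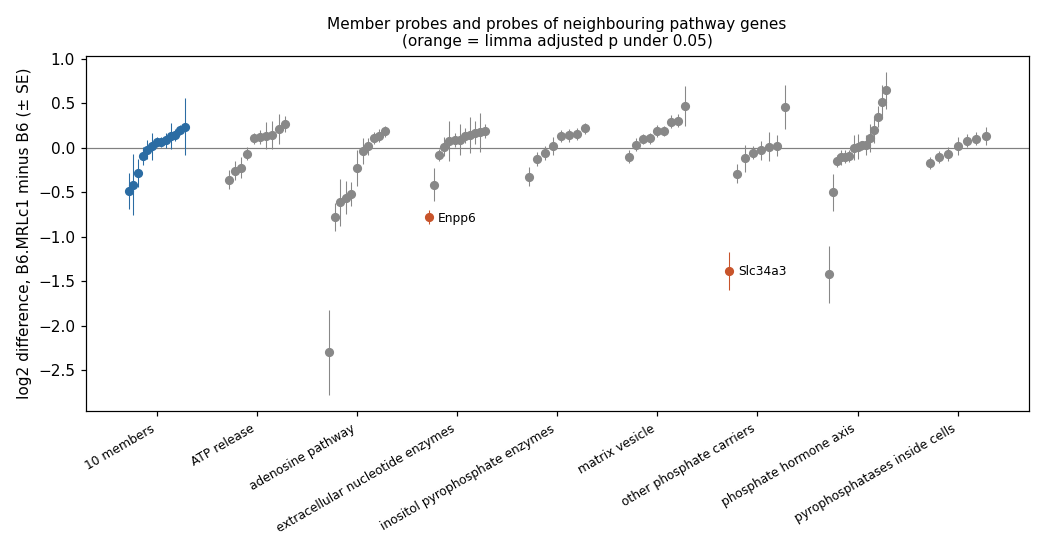
Log2 difference between the strains (B6.MRLc1 minus B6, ± SE) of each tested probe, for the 10 member genes (blue) and for 8 role groups of neighbouring genes (grey). The only probes with an adjusted p under 0.05 (orange) are those of Enpp6 and Slc34a3, and the members lie between -0.48 and 0.24.

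The count over the whole array moved with single arrays: 665 probes were called with all 6, but only 45 when B6 array 1 was left out, 156 when array 2 and 367 when array 3. Leaving out a B6.MRLc1 array gave 102 (array 1), 70 (array 2) or 263 (array 3). The count of member probes called was 0 in each of these 6 fits. With the intensity trend it was 1 of 13, Slc20a1, while 1388 probes were called over the array.

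**Figure D5:**
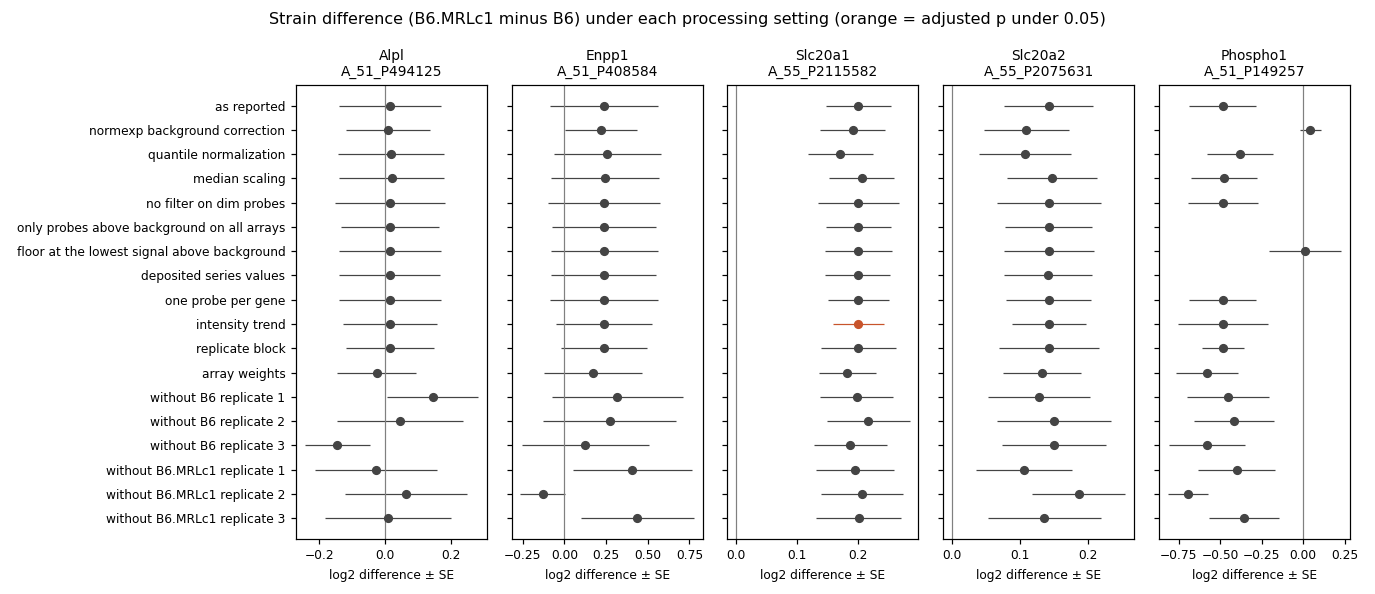
Log2 difference between the strains (B6.MRLc1 minus B6, ± SE) of 5 member probes in the analysis as reported and in each alternative, a row per setting. The 3′ probes of Slc20a1 and Slc20a2 stay above 0 in every row, Slc20a1 passes in 1 (orange), and Alpl and Enpp1 change sign when some arrays are left out.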

How the data were processed

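Per the labels' protocols, the authors labelled 0.1 ug of total RNA per testis with Cy3. In the authors' deposited array files, signals are intensity values on a linear scale that per the file headers are background-subtracted and spatially detrended and are not scaled between arrays, so dim values depend on that subtraction. Feature Extraction is given as version 10.7.3.1 per the file headers and as 9.5.3 per the submitters' processing notes. The authors' deposited series table holds log2 values, and 99.96% of its values for probes complete on 6 arrays lay within 0.05 of the signals computed here after centring each probe on its median. The deposited spot flags (other numbers, 0 or 1 per spot) and surrogate values were used as given.

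Here, control spots and outlier spots were dropped, each array was divided by its 75th percentile, log2 was taken with no pseudocount, and spots of a probe were averaged. Testing required a value on 4 or more arrays, and a share of well-above-background spots over 0.5 on 3 or more. Strains were compared with limma 3.58.1 under R 4.3.3 (a linear model with empirical Bayes variances) over all 36626 such probes, two-sided, with Benjamini-Hochberg adjustment over all of them. The fit was tested on simulated data. Neither the labels nor the files tell more of the animals than 3 per strain, so p-values measure the spread between these samples. The number of arrays limits the precision.

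The members and lists were chosen with earlier results of these data known. All members were named with every probe. In each neighbouring group the called probes were named, or else up to 2 with the smallest p. Alternatives covered background, scaling, filter, floor, deposited values, 1 probe per gene, variance trend, array weights, a replicate block and leaving out each array. The sequence of 1 Enpp1 probe is not reported here.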

Additional observations from a re-analysis of the deposited data

How the results depend on the processing

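No member probe passed in the reported analysis or in any alternative except the fit with an intensity trend, where 1 did (Slc20a1, A_55_P2115582). Over all probes, 665 were called, but 1000 with normexp (301 higher and 699 lower in B6.MRLc1), 1388 with the intensity trend, 1449 with array weights, 422 with the deposited values, 413 with a floor, 55 without the filter on dim probes, and 45 to 367 without 1 array. With the replicate number as a replicate block 2 probes were called over the array and 0 among the members. The numbers were not taken as pairs, since deviations of same-numbered arrays correlated at -0.03, 0.14 and 0.09. The 2 calls among neighbouring genes became 4 with the trend, 1 with the deposited values, and 0 with the block, a floor, no filter, or any 1 array left out. With only probes well above background on all arrays it was 0 too, but that fit holds neither the Enpp6 nor the Slc34a3 probe. The fit of the deposited values does not hold the Slc34a3 probe either. With normexp both were lost and 3 other neighbouring probes were called. The cause of these shifts was not tested. A block for slide row was not run, because each row holds 1 strain. The dim probes of Phospho1, Enpp1, Slc20a1 and Xpr1 changed sign with normexp (0.04, 0.09, 0.09 and 0.19). Alpl changed sign in 3 of 17 alternatives. Estimates of Nt5e, Ank, both Slc20a2 probes and the 3′ probe of Slc20a1 kept their sign in all alternatives that gave one. So did those of the Xpr1 probes A_52_P678117 and A_52_P451574.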

Other observations

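All 4 probes of Chka on the array measured above 0, at 0.31, 0.29, 0.19 and 0.19 on the log2 scale, and none passed in limma (adjusted p = 0.117, 0.126, 0.180 and 0.235). The strains did not overlap on any of the 4, beside 27% of all probes tested with values on 6 arrays. The 4 probes read 1 gene on the same arrays and are not separate results. Fam20c, a kinase of secreted proteins, likewise measured 0.35 and 0.51 on its 2 probes (limma adjusted p = 0.195 and 0.235). Both genes were singled out after their values were seen.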
